A study of Rattus norvegicus with 8 samples.

Results

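The genes of the fibrinogen chains and of plasminogen activation were followed in rat kidney after allopurinol. They were 8 genes, chosen by name: Fga, Fgb and Fgg, which encode the alpha, beta and gamma chains of fibrinogen; Plat and Plau, the tissue-type and urokinase-type plasminogen activators; Plaur, the cell surface receptor of Plau; Serpine2, an inhibitor of thrombin and of the plasminogen activators; and F3, tissue factor. Each was found on the array by the accession of its probe, looked up among the genes that RefSeq annotates on GRCr8. This gave 9 of the 30367 probes, 2 of them for Plaur and 1 for each other gene, and every one of these probes was a single spot. All 8 genes passed the detection filter, which asked for a signal well above background on 4 or more of the 8 arrays, and they were tested among 21416 genes or unnamed transcripts.

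Fibrinogen is a soluble plasma protein built from its alpha, beta and gamma chains and is made mainly by the liver, where its genes rise in the acute phase response under interleukin-6 and Stat3. Tissue factor starts the coagulation cascade that ends with thrombin cutting fibrinogen into insoluble fibrin. Plat and Plau turn plasminogen into plasmin, the protease that dissolves fibrin and also cuts matrix proteins, and serpins hold both activators in check. In kidney, Plau is known as a product of tubule cells and Plat as a product of endothelial cells, and tubule cells of injured rodent kidneys have been described as a local source of fibrinogen.

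The rats were male, 10 weeks old and of the outbred SD (Sprague-Dawley) strain. In 4 kidney samples the treatment was APL at 150 mg/kg for 4 weeks, and APL is taken to mean the allopurinol of the title, a drug that blocks xanthine oxidase, used there to model renal fibrosis. The other 4 kidney samples came after 0.5% methylcellulose, a vehicle, for the same 4 weeks. The title speaks of tubules and the tissue label of kidney, and nothing in the labels says that the replicates were separate animals, so the p-values measure the spread between these samples, which may be technical.

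Each sample had 1 single-colour array, and precision is limited by how many there were. Levels are given as the processed signal in percent of the array's 75th percentile over probes, a value that was 455 ± 53 on the APL arrays and 291 ± 18 on the control arrays (SD, n = 4 each; exact two-sided permutation p = 0.0286, the minimum over 70 splits). Between 79.9% and 81.9% of probes were well above background on the APL arrays, against 74% to 77.3% on the control arrays. Control replicate 3 stood apart from the other control arrays on the second principal component. Replicates 1 and 2 of both groups were on slide 1 and replicates 3 and 4 on slide 2, so the slides were balanced.

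Of the 8 genes, 2 were higher with APL, Fgb and Plat, 1 was lower, Plau, and 5 did not pass an adjusted p of 0.05. Over all genes tested, 11.9% were called higher and 11.5% lower, 23.5% in all, and without scaling between arrays 83.7% of the calls were upward, against 50.8% with it. The groups did not overlap for 3 of the 8 genes, against 29.8% of all genes. A fit over every kept probe called 22.7% of probes. Fgb and Plat were both at least 16-fold higher by the fitted change, as were 1.78% of all genes tested. The plot of the 9 probes on each array shows which samples carry these differences.

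**Figure D1:**
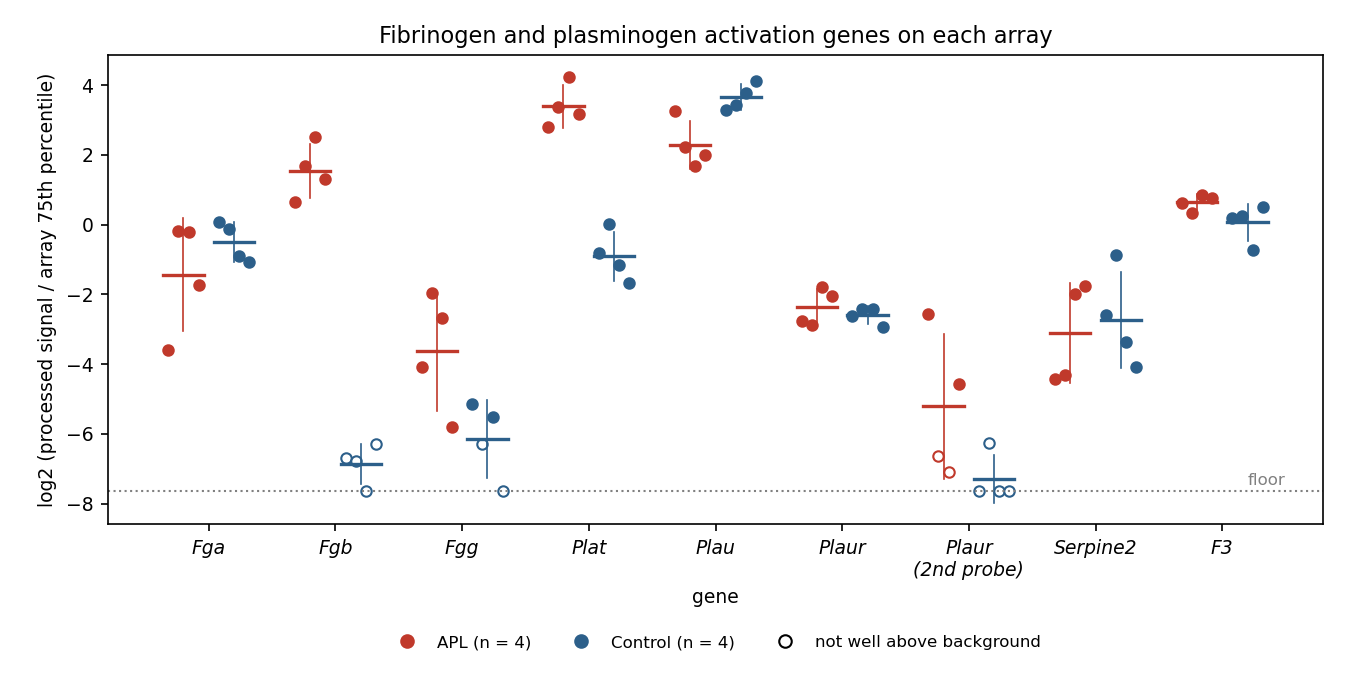
Level of each of the 9 probes on the 8 arrays, as log2 of the processed signal over the array's 75th percentile, with APL (red) left of Control (blue). Points are arrays in the order of their replicate numbers, open points were not well above background, horizontal bars are means, vertical bars 1 SD (n = 4 each) and the dotted line is the floor at 0.5% of the 75th percentile. The groups are apart for Fgb, Plat and Plau and overlap for the other genes.

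Of the fibrinogen chains, Fgb was called and Fga and Fgg were not. Fgb was absent from the detected probes of every control array and present on every APL array, Fgg spread widely and Fga overlapped between the groups. Fgb had 157%, 322%, 572% and 249% of the 75th percentile on APL replicates 1 to 4, against 0.959%, 0.903%, 0.371% and 1.28% on control replicates 1 to 4. The log2 fold change of the floored levels was 8.40 ± 0.45 (SE; limma, adjusted p = 2.51e-05). All 4 APL arrays were well above background and no control array was, so a bound of the fold is given as well. On the processed signal it was 182-fold, and it was not tested. For this bound the APL mean was divided by the mean control ceiling, which on an array is the dimmest detected probe or the gene's own signal, whichever is brighter. The bound is approximate, because an undetected probe can be brighter than the dimmest detected one. Serpina5 was undetected at 1.78% on control replicate 3, where the dimmest detected probe had 1.66%. The measured log2 levels were 1.54 ± 0.78 for APL and -6.86 ± 0.57 for control (SD, n = 4 each), and a pattern of detection on 4 APL and 0 control arrays with a call upward was found for 1.01% of all genes tested. With normexp background correction, which adds an offset of 50 to every spot, the log2 fold change was 3.67 or 3.49, depending on the scaling, and still past the threshold.

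Fgg, the gamma chain that carries a main site for platelet binding, was dim. It had 5.87%, 25.5%, 15.8% and 1.78% on APL replicates 1 to 4, and 2.82%, 1.27%, 2.20% and 0.339% on control replicates 1 to 4, where replicates 2 and 4 were not well above background. APL replicate 4 lay below control replicates 1 and 3, and the other APL arrays lay above every control array. The log2 fold change was 2.51 ± 0.89 (SE; 95% interval 0.46 to 4.57), which did not pass the threshold (adjusted p = 0.0778), and it was 3.24 without APL replicate 4 (adjusted p = 0.0282). Under the normexp settings it was 0.90 or 0.48.

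Fga, the alpha chain, was well above background on all 8 arrays, control arrays included. Its levels were 8.30%, 88.3%, 86.0% and 30.1% on APL replicates 1 to 4, and 106%, 92.1%, 53.8% and 47.6% on control replicates 1 to 4. APL replicates 2 and 3 lay within the control range and APL replicates 1 and 4 below it. The log2 fold change was -0.93 ± 0.76 (SE; 95% interval -2.67 to 0.81; adjusted p = 0.405), and it was -0.21 without APL replicate 1.

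The chains lie side by side on rat chromosome 2 in the RefSeq table of GRCr8, in the order Fgg, Fga and Fgb, and the last 250 bases before each start, as RefSeq gives it, are shown because the chains are neighbours of which only Fgb was called. Capitals mark matches on either strand to the letters searched: CTGGGAA, the acute phase element bound by Stat3; TTGCNNAA, read by C/EBP factors; TGANTCA, read by AP-1; and GGGCGG, read by Sp1. No marked stretches overlap here. The windows are chr2:170700876-170701125 on the minus strand for Fgb, chr2:170652833-170653082 on the plus strand for Fgg and chr2:170671919-170672168 on the plus strand for Fga.
Fgb: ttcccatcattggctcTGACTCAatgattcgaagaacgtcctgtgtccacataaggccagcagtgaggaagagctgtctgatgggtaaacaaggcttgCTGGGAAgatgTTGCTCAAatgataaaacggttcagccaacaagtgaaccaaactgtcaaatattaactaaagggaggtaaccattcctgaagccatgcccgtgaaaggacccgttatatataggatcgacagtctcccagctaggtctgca
Fgg: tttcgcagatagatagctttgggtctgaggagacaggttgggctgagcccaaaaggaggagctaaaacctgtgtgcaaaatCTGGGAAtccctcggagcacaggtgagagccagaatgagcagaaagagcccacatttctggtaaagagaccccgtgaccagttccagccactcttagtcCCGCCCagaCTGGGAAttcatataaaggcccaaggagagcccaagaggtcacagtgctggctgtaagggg
Fga: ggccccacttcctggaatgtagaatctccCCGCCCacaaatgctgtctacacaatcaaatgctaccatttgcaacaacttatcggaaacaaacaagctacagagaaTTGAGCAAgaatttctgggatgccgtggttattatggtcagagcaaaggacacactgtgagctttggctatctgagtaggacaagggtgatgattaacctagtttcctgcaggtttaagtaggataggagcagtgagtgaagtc
A second RefSeq window of Fga starts 18 bases further on. The Fgg window belongs to a start inside the gene as the RefSeq gene table spans it, so that 154 of its 250 bases lie within that span, while the windows of Fgb and Fga shown lie outside their genes.

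Fgb held CTGGGAA at 152 bases before the start, TTGCNNAA at 141 bases and TGANTCA at 234 bases. Fgg held CTGGGAA at 169 and at 61 bases and the letters of GGGCGG at 70 bases. Fga held TTGCNNAA at 144 bases and the letters of GGGCGG at 221 bases, and CTGGGAA is not in this window. Over all 33469 RefSeq windows of 250 bases, 9.56% held CTGGGAA, 9.22% TTGCNNAA, 6.34% TGANTCA and 30.5% GGGCGG. Promoter windows were matched for 6 of the 8 genes, and of the others Plau held 3 matches to GGGCGG, Plaur 1 to TGANTCA and 1 to TTGCNNAA, and Serpine2 6 to GGGCGG, some of them overlapping, in a window of which 50 bases lie within the gene's span. Such matches describe the letters and not sites in use. Plat and F3 were not matched.

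The plasminogen activators moved in opposite directions. Plat, the tissue-type activator, rose in every APL sample, and Plau, the urokinase-type activator, was lower in every APL sample by a narrow margin. Plat had 699%, 1031%, 1899% and 895% of the 75th percentile on APL replicates 1 to 4, against 57.2%, 100%, 44.8% and 31.5% on control replicates 1 to 4. The lowest APL value was far above the highest control value, and APL replicate 3 was the highest for Plat as it was for Fgb. The log2 fold change of Plat was 4.30 ± 0.43 (SE; 95% interval 3.30 to 5.30; adjusted p = 0.000401), a 19.7-fold change, with 3.49 on slide 1 and 5.12 on slide 2.

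Plau had 964%, 466%, 321% and 400% on APL replicates 1 to 4, against 986%, 1081%, 1356% and 1746% on control replicates 1 to 4. Every APL array was below every control array, and the gap was narrow between APL replicate 1 and control replicate 1 (964% against 986%). Plau fell by 1.36 ± 0.37 on the log2 scale (SE; 95% interval -2.22 to -0.51; adjusted p = 0.0334), with a log2 fold change of -0.62 on slide 1 and -2.10 on slide 2. The call was lost when APL replicate 2, 3 or 4 or control replicate 2, 3 or 4 was left out (adjusted p up to 0.0879), and under quantile normalization, with or without normexp (adjusted p = 0.0542 without it and 0.0569 with it), and no scaling between arrays (adjusted p = 0.172). Compared within arrays, the change of Plat exceeded that of Plau by 5.66 on the log2 scale, for 1 of 4 pairs of genes chosen after the values were seen. Each of these genes alone already separated the groups, in opposite directions. Separation of their difference was thereby fixed in advance, and no p-value is given for it. The other 3 pairs, among the fibrinogen chains, are not given as differences because Fgb and Fgg were not well above background on all control arrays.

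**Figure D2:**
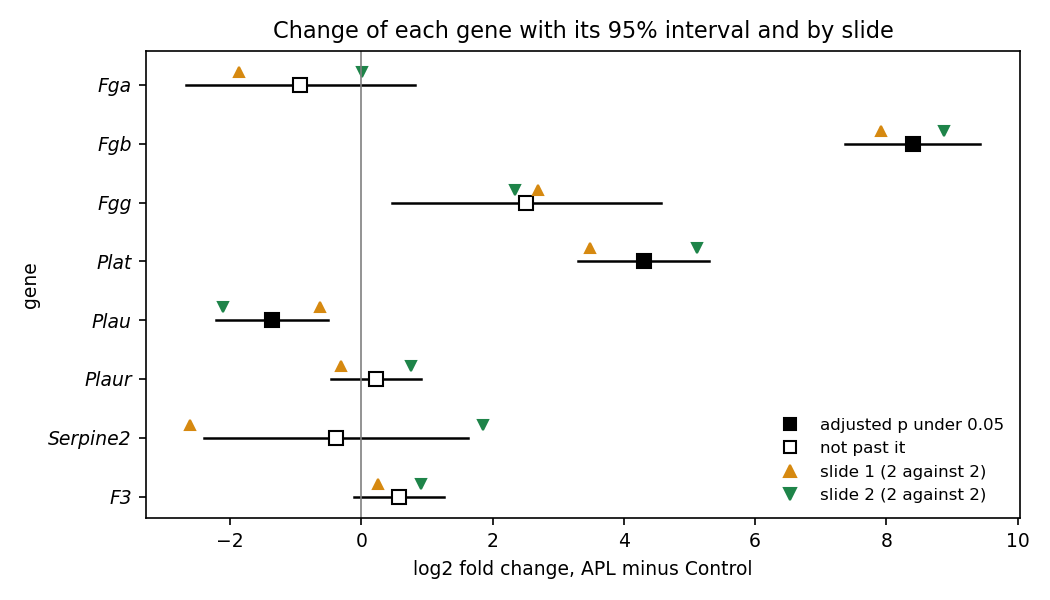
Log2 fold change, APL minus Control, of the 8 genes (squares) with the 95% interval of the moderated estimate (lines; n = 4 against 4), and the same difference on slide 1 and slide 2 (triangles; 2 arrays against 2). Filled squares passed an adjusted p of 0.05. Fgb and Plat are above 0 on both slides, Plau is below 0 on both, and the slides fall on opposite sides of 0 for Plaur, Serpine2 and, with slide 2 at 0.01, Fga.

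The receptor of Plau, its inhibitor and tissue factor did not pass the threshold. Plaur, which holds Plau at the cell surface, had 14.7%, 13.7%, 29.06% and 23.99% on APL replicates 1 to 4, and 16.4%, 18.8%, 18.86% and 12.96% on control replicates 1 to 4 by the brighter probe. Its log2 fold change was 0.22 ± 0.30 (SE; 95% interval -0.47 to 0.91; adjusted p = 0.623), and its sign turned under quantile normalization (-0.05). The second Plaur probe did not pass the detection filter: it was well above background on 2 APL arrays, at 16.9% on replicate 1 and 4.18% on replicate 4, and on no control array. Its APL mean was 1.68-fold the mean control ceiling, and the measured log2 levels had an exact permutation p of 0.0857. This fold is not a lower bound, because APL replicates 2 and 3, at 1.01% and 0.738%, were not well above background. The probes thus differed in what they detected, and the second was not in the fit.

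Serpine2, also called protease nexin-1, had 4.69%, 5.07%, 25.1% and 29.6% on APL replicates 1 to 4, and 16.5%, 54.2%, 9.66% and 5.94% on control replicates 1 to 4. On slide 1 both APL arrays were below both control arrays, and on slide 2 both were above them. The log2 fold change was -0.38 ± 0.87 (SE; 95% interval -2.40 to 1.63; adjusted p = 0.777), with -2.61 on slide 1 and 1.85 on slide 2. The sign of the whole turned without APL replicate 1 (0.05) or 2 (0.01), without control replicate 2 (0.23), without scaling (0.25) and with normexp and the 75th percentile (0.55), none of them past the threshold.

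F3, the transmembrane starter of coagulation, had 154%, 126%, 180% and 170% on APL replicates 1 to 4, and 115%, 120%, 60.7% and 143% on control replicates 1 to 4. Control replicate 4 lay above APL replicate 2, and each other APL array lay above all control arrays. Its log2 fold change was 0.58 ± 0.30 (SE; 95% interval -0.11 to 1.27; adjusted p = 0.198), and 0.32 without control replicate 3. Without scaling between arrays it was 1.22 and past the threshold (adjusted p = 0.0321), where the median of all genes was 0.61.

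**Figure D3:**
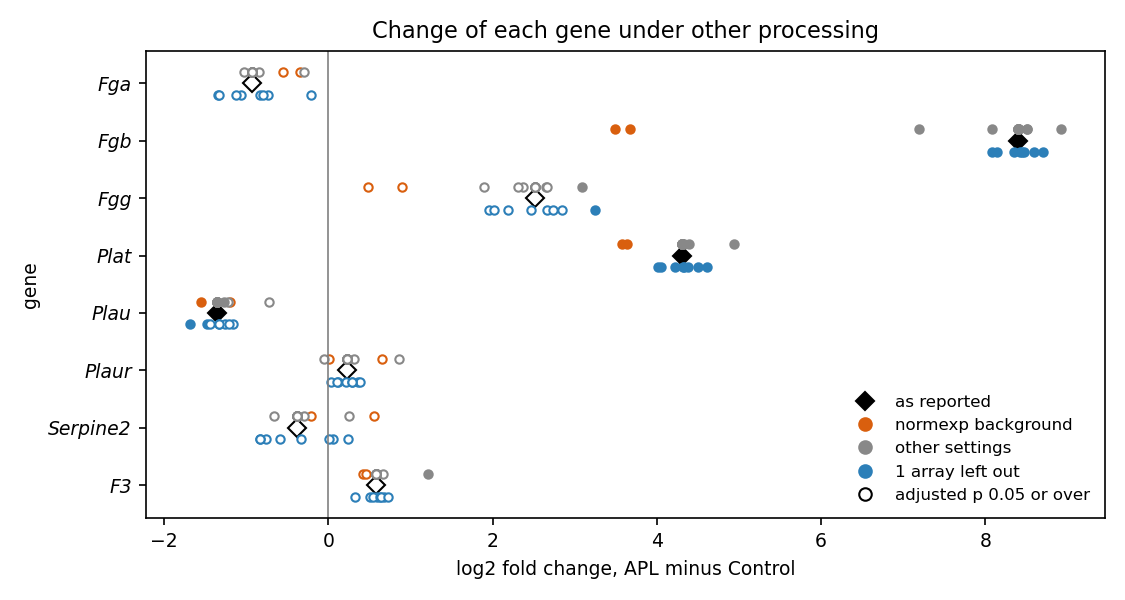
Log2 fold change, APL minus Control, of the 8 genes as reported (diamonds), with normexp background correction (orange), under the other settings (grey) and with 1 array left out (blue). Filled symbols passed an adjusted p of 0.05. Fgb ranges from 3.49 to 8.92 over the settings with all 8 arrays and Plat from 3.57 to 4.94, every one past the threshold, and Plau loses its fill under several settings.

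The other genes of the system were read from 6 lists of 65 genes, of which 60 were on the array by symbol and 48 were tested. Of these 48, 12 were higher and 8 lower, against the 23.5% called over all genes, and their median log2 fold change was 0.28, beside -0.03 over all genes tested. In the fibrinolysis list, 4 of 13 were higher and 3 lower, with a median of 0.32.

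Both parts of the cell surface assembly that brings Plat and plasminogen together rose. Anxa2, annexin A2, rose by 3.70 ± 0.34 (adjusted p = 0.000237), with levels of 1950% ± 607 in APL and 153% ± 57.8 in control samples (SD, n = 4 each). S100a10, its p11 partner, rose by 2.88 ± 0.29 (adjusted p = 0.000405), with 7450% ± 1600 in APL and 1040% ± 332 in control samples. Hgfac, a serine protease that activates hepatocyte growth factor, rose by 2.42 ± 0.20 (adjusted p = 0.00016), with 16.5% ± 1.38 in APL and 3.11% ± 0.565 in control samples, a call lost under normexp with 75th percentile scaling (log2 fold change 1.07). Serpinf2, the alpha-2-antiplasmin that blocks plasmin, had 123%, 63.0%, 123% and 113% on APL replicates 1 to 4, against 1939%, 1425%, 1216% and 1664% on control replicates 1 to 4. It fell by 3.92 ± 0.28 (adjusted p = 8.27e-05), with every APL array below every control array.

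Plg, plasminogen itself, was dim at 19.4% ± 15.7 in APL and 12.7% ± 1.77 in control samples (SD, n = 4 each), and did not pass (log2 fold change 0.32 ± 0.48, adjusted p = 0.663). Lrp2, megalin, an endocytic receptor of the proximal tubule that takes up activator complexes, fell by 2.15 ± 0.23 (adjusted p = 0.000524). Eno1, a glycolytic enzyme that also binds plasminogen, fell by 0.73 ± 0.19 (adjusted p = 0.0295). The call of Eno1 was lost when any array other than APL replicate 4 was left out (adjusted p up to 0.0733), and its value was -0.09 without scaling.

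**Figure D4:**
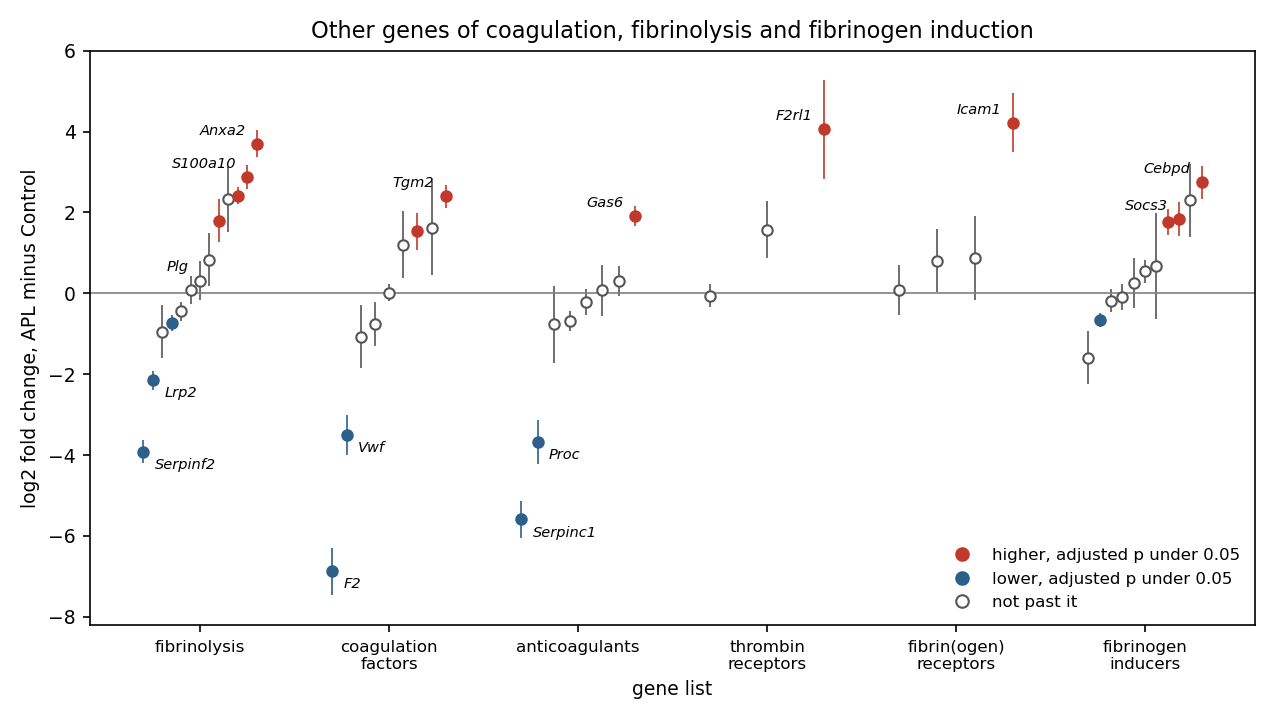
Log2 fold change, APL minus Control, of the 48 tested genes of 6 lists on coagulation, fibrinolysis and fibrinogen induction, ordered by size within each list, with the moderated SE (n = 4 against 4). Red points were higher and blue points lower at an adjusted p under 0.05 and open points did not pass. Anxa2, F2rl1 and Icam1 are at the top of their lists, and F2, Serpinc1 and Serpinf2 at the bottom of theirs.

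Among coagulation factors 2 of 9 tested genes were higher and 2 lower, with a median of 0.02. F2, prothrombin, had 1.89%, 9.36%, 1.69% and 1.47% on APL replicates 1 to 4, against 332%, 334%, 222% and 333% on control replicates 1 to 4. It fell by 6.87 ± 0.58 (adjusted p = 0.000165), and its log2 fold change was -3.47 or -3.50 under the normexp settings. Vwf, the endothelial platelet tether, fell by 3.50 ± 0.50 (adjusted p = 0.00205), and its other probe had a log2 fold change of -6.72. Tgm2, a tissue transglutaminase that crosslinks proteins, rose by 2.40 ± 0.29 (adjusted p = 0.000865). Kng1, a kininogen close in sequence to other rat kininogens, whose signals a probe may share, rose by 1.53 ± 0.46 (adjusted p = 0.0461), a call lost when any array other than APL replicate 4 was left out and under 6 of 14 other settings.

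Among anticoagulants and related genes 1 of 8 was higher and 2 lower, with a median of -0.45. Serpinc1, antithrombin, had 14.97%, 9.11%, 16.97% and 3.61% on APL replicates 1 to 4, against 474%, 446%, 441% and 486% on control replicates 1 to 4. It fell by 5.59 ± 0.47 (adjusted p = 0.00016). Proc, protein C, fell by 3.68 ± 0.54 (adjusted p = 0.00228), with 1 APL array well above background, and was not called under normexp with 75th percentile scaling (adjusted p = 0.941). Gas6, a ligand of the TAM receptors related to protein S, rose by 1.91 ± 0.26 (adjusted p = 0.00152). Thbd, thrombomodulin, had a log2 fold change of 0.07 ± 0.63 (adjusted p = 0.944), Tfpi, the tissue factor pathway inhibitor, one of 0.30 ± 0.36 (adjusted p = 0.575), and Procr, the protein C receptor, was well above background on 1 APL array and no control array and was not tested. Other probes of Thbd and Tfpi had the opposite sign, at -1.09 and -0.46.

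Of the 3 protease-activated receptor genes tested, listed together as thrombin receptors, 1 was higher and 0 lower, with a median of 1.58. F2rl1, the protease-activated receptor PAR2, had 30.8%, 52.9%, 61.3% and 26.6% on APL replicates 1 to 4, against 22%, 6.28%, 0.336% and 0.337% on control replicates 1 to 4, where replicates 3 and 4 were not well above background. It rose by 4.06 ± 1.22 (adjusted p = 0.0460), a call lost when any array other than control replicate 1 was left out (adjusted p up to 0.101) and under 5 of 14 other settings, and its log2 fold change was 1.45 or 1.05 under the normexp settings. F2r, the main thrombin receptor PAR1, had a log2 fold change of 1.58 ± 0.71 (adjusted p = 0.148). F2rl3 had one of -0.06 ± 0.29 (adjusted p = 0.893), so that neither F2r nor F2rl3 passed. Among fibrin or fibrinogen receptors and fibrinogen-like genes, 1 of 4 was higher and 0 lower, with a median of 0.84. That was Icam1, an adhesion molecule that binds fibrinogen, which rose by 4.22 ± 0.72 (adjusted p = 0.00484).

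Among inducers of fibrinogen transcription and genes that regulate them, 3 of 11 were higher and 1 lower, with a median of 0.54. Cebpd, a C/EBP factor of the acute phase, had 372%, 788%, 768% and 259% on APL replicates 1 to 4, against 96.2%, 65.5%, 86.3% and 53.2% on control replicates 1 to 4. It rose by 2.74 ± 0.41 (adjusted p = 0.00267). Stat3, the transcription factor downstream of interleukin-6, rose by 1.76 ± 0.33 (adjusted p = 0.007), and Socs3, a feedback inhibitor and target of Stat3, by 1.83 ± 0.41 (adjusted p = 0.0165). Il6 itself was well above background on 0 of the 8 arrays and was not tested. Il11, a cytokine of the same receptor family, fell by 0.66 ± 0.17 (adjusted p = 0.0271), a call lost when any array other than APL replicate 4 was left out (adjusted p up to 0.0658), and its value was -0.02 without scaling.

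Markers of the cell types that the tissue could hold were read beside these genes, and their part in the results was not tested. In whole tissue, fewer cells of a type and less RNA per cell cannot be told apart. Of 12 hepatocyte markers 6 were tested, 0 were higher and 1 was lower, Apoh, a plasma glycoprotein (adjusted p = 0.000405), which had 0.247% to 2.89% in APL samples, where only replicate 4 was well above background, and 31.4% to 73.7% in control samples. Alb, albumin, was well above background on 0 of the 8 arrays. The summed level of the tested hepatocyte markers was 43.4% to 75.2% in APL and 58.4% to 124% in control samples. Apoh was a large part of the control sums and a small part of the APL sums. Of 5 tested platelet markers 0 were called, with sums of 44.4% to 61.1% in APL and 39.2% to 73.1% in control samples.

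Endothelial markers, the cells known for Plat and Vwf, were lower in 7 of 9 and higher in 0, with sums of 118% to 143% in APL and 1207% to 1407% in control samples. Plvap, a protein of endothelial diaphragms, fell by 4.40 ± 0.36. Emcn, endomucin, also passed (adjusted p = 0.0215), with 0.205% to 3.72% in APL samples, where only replicate 2 was well above background, and 2.75% to 52.7% in control samples, so that the groups overlapped. Proximal tubule markers were lower in 8 of 10 and higher in 1, with sums of 4829% to 5813% in APL and 82130% to 98430% in control samples. Kap, the kidney androgen-regulated protein, fell by 7.86 ± 0.51, and Slc22a6, an organic anion transporter, by 6.51 ± 0.37. Proximal tubule markers were bright in the control samples, as the kidney label says. Among them, Slc5a2, a glucose transporter, was the called increase (3.04 ± 0.66, adjusted p = 0.014), and Cubn did not pass (-0.53 ± 0.22, adjusted p = 0.116). Plau, F2, Serpinc1 and Serpinf2 were called lower with APL, as were 11.5% of all genes tested. A link between these genes and the proximal tubule markers was not tested.

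Macrophage markers were higher in 4 of 7 and lower in 0, with sums of 1402% to 2134% in APL and 590% to 896% in control samples. Lyz2 and Aif1 were the brightest and made up most of these sums. Fcgr1a was called by its brighter probe (2.09), and its other probe had the opposite sign, at -0.42. Cd14, a lipopolysaccharide co-receptor detected on 3 control arrays of 4, rose by 5.13 ± 0.78, and Cd68 by 2.62 ± 0.36. The tested macrophage markers that did not pass were Adgre1 (-0.34, adjusted p = 0.684), Csf1r (-0.24, adjusted p = 0.738) and Aif1 (0.85, adjusted p = 0.0851). Fibroblast and smooth muscle markers were higher in 2 of 8 and lower in 0, with sums of 2913% to 9725% in APL and 1261% to 1580% in control samples, the collagens Col1a1 (2.12 ± 0.38) and Col3a1 (2.01 ± 0.44) being the called ones. Distal and collecting tubule markers were higher in 1 of 11, Aqp2 (1.93 ± 0.48), and lower in 1, Umod, which fell by 3.85 ± 1.06. Their sums were 1545% to 3615% in APL and 4556% to 6905% in control samples. Umod made up most of the control sums, at 3640% ± 794 in control and 495% ± 505 in APL samples (SD, n = 4 each). The median log2 fold change of the list was 0.04, so the lower sums do not show a fall of the list as a whole. Podocyte markers were higher in 2 of 6 and lower in 1, with Ptpro (2.94 ± 0.52) and Podxl (-1.99 ± 0.33) as the largest called changes, and sums of 123% to 225% in APL and 201% to 317% in control samples.

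Genes with the most similar profile were named by the smallest root mean square difference of log2 levels over the 8 arrays, each profile centred on its own mean. For Fgb these were Lcn2, a siderophore-binding protein of injured tubules (0.64), and Dynlrb2, a dynein light chain (0.64), against a median of 4.29 over all named genes. The nearest genes lie below the median by construction. Dynlrb2, like Fgb, was well above background on 0 control arrays, so their match there is of undetected signal. Plat was nearest to Stra6, a retinol transporter (0.35), and Csrp1, a cysteine-rich LIM protein (0.40), with a median of 2.32. Plau was nearest to Tvp23a (0.20) and to Slc22a4, an organic cation transporter (0.24), with a median of 1.1. Fgg was nearest to Cebpd (0.74) and Brca1 (0.76), with a median of 1.89, and Brca1 was well above background on 1 control array. The nearest genes of the members that did not pass were Ttc17 and Rassf8 for Fga (0.51 and 0.53), Serpina5 and Smim22 for Plaur (0.15 and 0.17), Borcs6 and Arhgap4 for Serpine2 (0.40 and 0.57) and Blzf1 and Avpi1 for F3 (0.14 each). Serpina5 was well above background on 3 APL arrays and 1 control array.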

How the data were processed

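Total RNA of 8 rat kidney samples was isolated on columns and carried Cy3, per the labels. Arrays of design 028282 were quantified by Feature Extraction 10.5.1.1 (Agilent) with protocol GE1_105_Dec08, per the file headers, which name the build rn4. The deposited scanner files hold linear intensity values: median spot and background intensities and the software's background-corrected processed signal. A deposited table of the series holds the authors' log2 values, close to log2 of the processed signal over the 75th percentile and centred per probe on its median (91.7% to 95.2% of values per array within 0.01 of such a rebuild, r from 0.9993 to 0.9999). Its column medians were -0.0722, 0.0188, -0.135 and -0.0432 for APL replicates 1 to 4 and 0.0336, 0.0656, 0.0765 and 0.00564 for control replicates 1 to 4. Scale, centring and direction follow from that comparison, and the source of the remaining differences is unknown.

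Non-control spots not flagged as non-uniform were averaged per probe, divided by the array's 75th percentile, raised to a floor of 0.005 and put on the log2 scale. No spot of the members was saturated or flagged. Symbols came from a RefSeq table of GRCr8 by unversioned accession (18635 probes named, 11732 unnamed here). The brightest kept probe stood for a gene. APL and Control were set against each other in limma 3.58.1 (R 4.3.3), p-values were adjusted over all 21416 genes by the Benjamini-Hochberg method, and ± after a fold change is the moderated SE (n = 4 each). The fit was tested on simulated data. Named were all 8 genes, fixed pathway genes, up to 3 called genes per pathway list and direction, and 2 like profiles per gene. Per marker list up to 2 called markers were named, and others where they limit a count or a sum. Some listed genes are not reported here. Genes and lists were chosen with earlier results of these data known. Alternatives were background correction, normalization, floor, filter, probe rule, slide, replicate number and leaving out each array.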

Additional observations from a re-analysis of the deposited data

Results flagged for a closer look

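Dixon's test for a sample far from the rest of its group was applied to 62 groups of 4 log2 levels, of which 6 passed the 95% critical value; chance flags about 1 in 20 groups. None of these was a member's probe that passed the filter. Serpinf2 was low on APL replicate 2 (-0.67, against 0.18 to 0.30 on the other APL arrays), where F2 was high (-3.42, against -6.09 to -5.73). F2 was low on control replicate 3 (1.15). On APL replicate 1, Socs3 (-1.20, against 0.28 to 0.47) and Stat3 (0.89, against 1.504 to 1.589) were both low. The second Plaur probe had -6.28 on control replicate 2, with the other control arrays at the floor. The floor alone set Dixon's ratio to its maximum there, so this flag is no result about the sample. No control array was well above background for that probe.

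For 2 genes the slides moved in opposite directions, every array of a group included. The log2 fold change of slide 2 exceeded that of slide 1 by 4.46 for Serpine2 (limma interaction, adjusted p = 0.644, unadjusted p = 0.00192) and by 1.07 for Plaur (adjusted p = 0.955, unadjusted p = 0.0504). No gene of 21351 passed this test at an adjusted p under 0.05, and 1088 had an unadjusted p under 0.05.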

How the results depend on the processing

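Fgb and Plat kept their direction and call under all 14 other settings with all 8 arrays and with each array left out (Fgb 3.49 to 8.92 and 8.08 to 8.70, Plat 3.57 to 4.94 and 4.02 to 4.61). Genes called numbered 5026, 2026 with normexp and the 75th percentile, 3258 with a replicate block and 3383 to 4189 with 1 array left out. Pathway genes called numbered 20, and 13 with normexp and the 75th percentile. Normexp with its offset compresses dim signals by construction. Plau lost its call with normexp and quantile normalization (-1.20), quantile normalization (-1.22), no scaling (-0.73) and the replicate block (-1.36, adjusted p = 0.0956), and ranged from -1.69 to -1.16 with 1 array left out. Fgg passed without scaling (3.08) and with the replicate block (2.51, adjusted p = 0.0498), and ranged from 1.96 to 3.24 with 1 array left out. F3 passed without scaling (1.22). The cause was not tested, except that leaving out the scaling moved the median of all genes by itself, to 0.61; relative to that median Plau was at -1.33, F3 at 0.61 and Fgg at 2.48. The median was -0.11 under quantile normalization and 0.36 under normexp with 75th percentile scaling. Deviations of same-numbered samples correlated at -0.0157 to 0.0482, and those of differently numbered samples at -0.0833 to 0.0912. No trace of pairing by replicate number was seen, but such correlations cannot show that the samples were unpaired. Leaving out spots flagged as population outliers, a setting chosen after seeing the data, changed no call of the 8 genes, and neither did the slide as a block. Dim signal limits Fgg, Serpine2, Plaur and Plg.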
